A study of Bos indicus and Bos indicus x Bos taurus and Bos taurus with 6 samples.

Results

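Thyroid hormone receptors act on chromatin through coregulator proteins, and the transcripts of 9 genes for these coregulators were followed in whole blood of 3 cattle breeds. The 9 genes were the rows of the deposited count matrix whose gene symbol was NCOA1, NCOA2, NCOA3, NCOA6, MED1, NCOR1, HDAC3, TBL1X or TBL1XR1, which is 9 of 21698 genes in the matrix. All 9 had enough counts to be tested, and none was lost to the filter on low counts. They were listed by function, as coregulators that thyroid hormone receptors use.

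The receptors sit on their target genes with or without hormone. When no hormone is bound, they hold a corepressor complex built on NCOR1, in which the WD-repeat proteins TBL1X and TBL1XR1 and the histone deacetylase HDAC3 keep the chromatin closed. Binding of triiodothyronine changes the receptor surface, so that the corepressors leave and coactivators of the NCOA1, NCOA2 and NCOA3 family dock, bring in histone acetyltransferases and are followed by Mediator, which links the receptor to RNA polymerase. These proteins serve most nuclear receptors and many other transcription factors, and all are broadly expressed.

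Each breed had 2 libraries, labelled as biological replicates, while the design text gives 4 animals for each breed, and the link between libraries and animals is not known here. Kedah-Kelantan is labelled heat-tolerant and is an indigenous breed of Bos indicus, Brangus is an intermediate composite of Bos indicus and Bos taurus, and Holstein Friesian is a Bos taurus breed labelled heat-vulnerable. All cows were adult females that were neither pregnant nor in milk, with a labelled age of 4.5 ± 1.2 years and weight of 450 ± 15 kg, and all were bled from the jugular vein at the same labelled temperature-humidity index of 44.68. There was no group outside heat stress, so breeds were compared and heat loads were not. The labels do not say whether any library pools animals, and p-values measure only the spread between these libraries.

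Total counts were 25275377 to 28668857 per library. White cell transcripts were present in every library. PTPRC, the pan-leukocyte protein CD45, had 1830 to 2678 CPM (counts scaled by TMM to a common library size) and the T cell gene CD3E 534 to 654 CPM. Other white cell genes varied more, with the B cell gene MS4A1 at 45.5 to 1132 CPM. The monocyte gene CD14 had 3.09 to 81.7 CPM and the neutrophil gene CSF3R 57.6 to 1572 CPM. The globin transcript HBB was only 94.99 to 634.5 CPM and HBA 0.0336 to 1.88 CPM. The Holstein Friesian libraries stood apart from each other. Over 10084 genes with a mean above 5 CPM, the median absolute log2 difference between replicates was 0.51 within Holstein Friesian, against 0.13 within Kedah-Kelantan and 0.19 within Brangus. The libraries of Holstein Friesian also differed in blood cell markers. Summed monocyte markers (10 of 10 listed genes measured, none at 0) were 519 CPM in replicate 1 and 8497 CPM in replicate 2, against 1635 and 1869 CPM in Kedah-Kelantan and 1382 and 1438 CPM in Brangus. Summed B and plasma cell markers (12 of 12 measured, none at 0) were 3333 and 262 CPM in Holstein Friesian replicates 1 and 2. Values of the 9 genes in Holstein Friesian are therefore given for both libraries. In bulk blood, fewer cells of a type and less RNA per cell cannot be told apart.

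No coregulator gene passed the test between any breeds. In edgeR's quasi-likelihood test with Benjamini-Hochberg adjustment over 13455 genes, 0 of 9 had an adjusted p under 0.05 in Kedah-Kelantan against Holstein Friesian, where 0.00743% of all genes did, and 0 of 9 in Brangus against Holstein Friesian, where the share was also 0.00743%. For Kedah-Kelantan against Brangus 0 of 9 passed, with 0.0% of all genes, and in the test of any breed difference 0 of 9, with 0.0% of all genes. At an unadjusted p under 0.05 the numbers were 0, 1, 0 and 0 of 9, where 4.04%, 7.62%, 11.6% and 8.23% of all genes passed. DESeq2 also called 0 of the 9, where it called 1.01%, 2.33%, 4.99% and 4.65% of all genes in the same order. None of the 9 passed without the filter on low counts (0.00613% of all genes in 3 of the comparisons) or in limma on log2(FPKM + 1), which called at most 0.0149% of all genes. With 3 residual degrees of freedom in the fit, the standard error of a log2 fold change was 0.19 to 0.32 for these genes. An absent call therefore does not show equal levels.

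**Figure D1:**
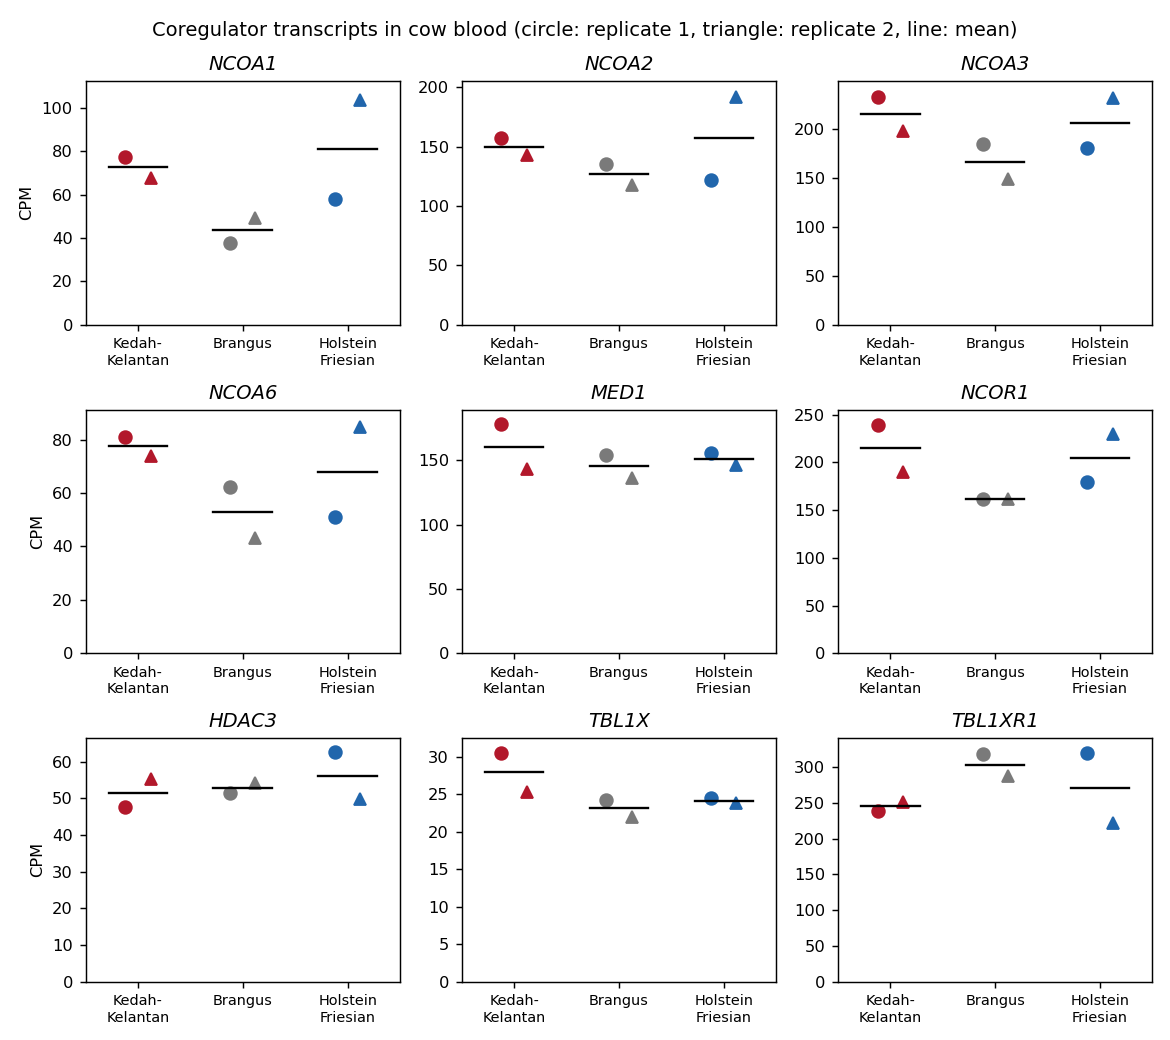
CPM of the 9 coregulator genes in each blood library, by breed, with circles for replicate 1, triangles for replicate 2 and a line at the mean (n = 2 per breed). NCOA1 was lowest in the Brangus libraries (37.9 and 49.3 CPM), and Holstein Friesian replicate 2 had the highest NCOA1, at 103.8 CPM.

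The NCOA1, NCOA2 and NCOA3 coactivators are large proteins of one family that bind hormone-loaded receptors through short leucine-rich motifs and recruit histone acetyltransferases. NCOA1 (chromosome 11, 74447679 to 74666712, minus strand) showed the widest breed differences of the 9 genes. It had 77.5 and 67.9 CPM in Kedah-Kelantan, 37.9 and 49.3 CPM in Brangus, and 58.2 and 103.8 CPM in Holstein Friesian, replicate 1 first in each case. Both Brangus libraries lay below all 4 others, while the Holstein Friesian libraries lay on either side of the Kedah-Kelantan ones. The log2 fold change of NCOA1 was -0.89 in Brangus against Holstein Friesian (SE 0.32, 95% interval -1.70 to -0.09, adjusted p = 0.647). It was 0.74 for Kedah-Kelantan against Brangus (SE 0.32, -0.07 to 1.54, adjusted p = 0.455). In Kedah-Kelantan against Holstein Friesian it was -0.16 (SE 0.32, -0.96 to 0.65, adjusted p = 0.995). On a linear scale, Brangus had 0.538 times the Holstein Friesian level, and Kedah-Kelantan had 1.67 times the Brangus level.

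Whether NCOA1 was called depended on how the divergent Holstein Friesian libraries entered the fit. In Kedah-Kelantan against Brangus, edgeR called NCOA1 with those 2 breeds alone in the fit (log2 fold change 0.75, adjusted p = 0.0206), when 19.3% of all genes were called. Dropping either Holstein Friesian library left the fold change of NCOA1 in this comparison nearly the same. Its fold change was 0.75 with replicate 1 dropped and 0.74 with replicate 2 dropped. A breed with 1 library adds nothing to the estimate of spread between replicates. These fits and the fit of 2 breeds thus rest on the same Kedah-Kelantan and Brangus libraries. They are 1 result and not separate evidence. limma voom with sample weights called NCOA1 too (0.75, adjusted p = 0.0256, 14.4% of all genes). Over the fit of 2 breeds, the fits with a Holstein Friesian library dropped and the voom fit, the SE of NCOA1 was 0.16 to 0.18. It was 0.32 in the main edgeR fit on all libraries. In Brangus against Holstein Friesian, NCOA1 was called without Holstein Friesian replicate 1 (-1.26, adjusted p = 0.00169, 31.3% of all genes called) and not without replicate 2 (-0.46, adjusted p = 0.233, 6.06% of all genes). In the test of any breed difference, leaving out Holstein Friesian replicate 1 called NCOA1 and NCOA2 (34.1% of all genes), and leaving out replicate 2 called NCOA1 (19.9%). None of the 9 was called in Kedah-Kelantan against Holstein Friesian without replicate 1 (17.5% of all genes) or without replicate 2 (11.9%). Over all alternatives tried, the adjusted p of NCOA1 was 0.0171 to 1.0 in Kedah-Kelantan against Brangus.

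NCOA2 (chromosome 14, 33834871 to 34119979, minus strand) and NCOA3 (chromosome 13, 76036737 to 76155834, plus strand) leaned the same way with smaller differences. NCOA2 had 156.9 and 143.0 CPM in Kedah-Kelantan, 135.4 and 117.9 CPM in Brangus, and 122.0 and 191.8 CPM in Holstein Friesian. NCOA3 had 232.7 and 198.2 CPM in Kedah-Kelantan, 184.3 and 148.8 CPM in Brangus, and 180.6 and 231.8 CPM in Holstein Friesian. For both genes the Kedah-Kelantan libraries lay above both Brangus libraries, and the range of the Holstein Friesian libraries overlapped each of the other breeds. Between Kedah-Kelantan and Brangus the log2 fold change was 0.24 for NCOA2 (SE 0.26, adjusted p = 0.742) and 0.37 for NCOA3 (SE 0.22, adjusted p = 0.551). In Brangus against Holstein Friesian both were -0.31, with SE 0.26 for NCOA2 and 0.22 for NCOA3. NCOA3 was -0.48 when Holstein Friesian replicate 1 was left out and -0.16 when replicate 2 was. NCOA2 was -0.60 in that comparison without Holstein Friesian replicate 1 and 0.015 without replicate 2.

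NCOA6 and MED1 are coactivators outside that family. NCOA6 (chromosome 13, 64051937 to 64148320, minus strand) belongs to the histone methyltransferase complexes built on KMT2C and KMT2D. It had 81.1 and 74.0 CPM in Kedah-Kelantan, 62.2 and 43.3 CPM in Brangus, and 51.0 and 84.9 CPM in Holstein Friesian. Here too Kedah-Kelantan lay above Brangus without overlap, and Holstein Friesian covered nearly the whole range (Kedah-Kelantan against Brangus 0.55, SE 0.31, adjusted p = 0.530). In Brangus against Holstein Friesian, the NCOA6 fold change moved to -0.69 once Holstein Friesian replicate 1 was dropped. Dropping replicate 2 instead gave 0.0092. MED1 (chromosome 19, 39843840 to 39867811, minus strand), the Mediator subunit that contacts nuclear receptors, had 178.4 and 143.0 CPM in Kedah-Kelantan, 154.0 and 136.5 CPM in Brangus, and 155.5 and 146.1 CPM in Holstein Friesian. The breeds overlapped in every comparison of MED1, and its log2 fold change was 0.09 in Kedah-Kelantan and -0.05 in Brangus, each against Holstein Friesian, and 0.15 between Kedah-Kelantan and Brangus (SE 0.19 each).

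NCOR1 (chromosome 19, 33326704 to 33442361, plus strand) is the scaffold of the corepressor complex. It had 239.2 and 190.3 CPM in Kedah-Kelantan, 161.9 and 161.2 CPM in Brangus, and 179.3 and 229.4 CPM in Holstein Friesian. Both Brangus libraries lay below the other 4, as for NCOA1. The log2 fold change was 0.41 in Kedah-Kelantan against Brangus (SE 0.21, adjusted p = 0.501), -0.34 in Brangus against Holstein Friesian (SE 0.21, adjusted p = 0.675) and 0.07 in Kedah-Kelantan against Holstein Friesian (SE 0.21). Without Holstein Friesian replicate 1 the second of these was -0.51, and without replicate 2 it was -0.19.

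HDAC3 (chromosome 7, 52716398 to 52730098, minus strand), the deacetylase that the complex switches on, had the highest p of the 9 genes in the test of any breed difference (adjusted p = 0.934). It had 47.8 and 55.2 CPM in Kedah-Kelantan, 51.5 and 54.3 CPM in Brangus, and 62.6 and 49.8 CPM in Holstein Friesian. The breeds overlapped in every comparison, with log2 fold changes of -0.13 in Kedah-Kelantan and -0.09 in Brangus, each against Holstein Friesian, and -0.04 between Kedah-Kelantan and Brangus (SE 0.19 each). The 95% interval of the last was -0.52 to 0.44, so a moderate difference in either direction lies within the error.

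TBL1XR1 (chromosome 1, 90030198 to 90208445, plus strand), the autosomal relative of TBL1X, leaned the other way from the coactivators and NCOR1. It had 239.0 and 251.8 CPM in Kedah-Kelantan, 317.8 and 287.5 CPM in Brangus, and 319.5 and 222.4 CPM in Holstein Friesian. Kedah-Kelantan lay below Brangus without overlap, and Holstein Friesian replicate 2 was the lowest library while replicate 1 was the highest. The log2 fold change was -0.30 in Kedah-Kelantan against Brangus (SE 0.22, adjusted p = 0.638), 0.16 in Brangus against Holstein Friesian (SE 0.22) and -0.14 in Kedah-Kelantan against Holstein Friesian (SE 0.22). In Brangus against Holstein Friesian, the TBL1XR1 fold change moved to 0.44 once Holstein Friesian replicate 1 was dropped. Dropping replicate 2 instead gave -0.12.

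**Figure D2:**
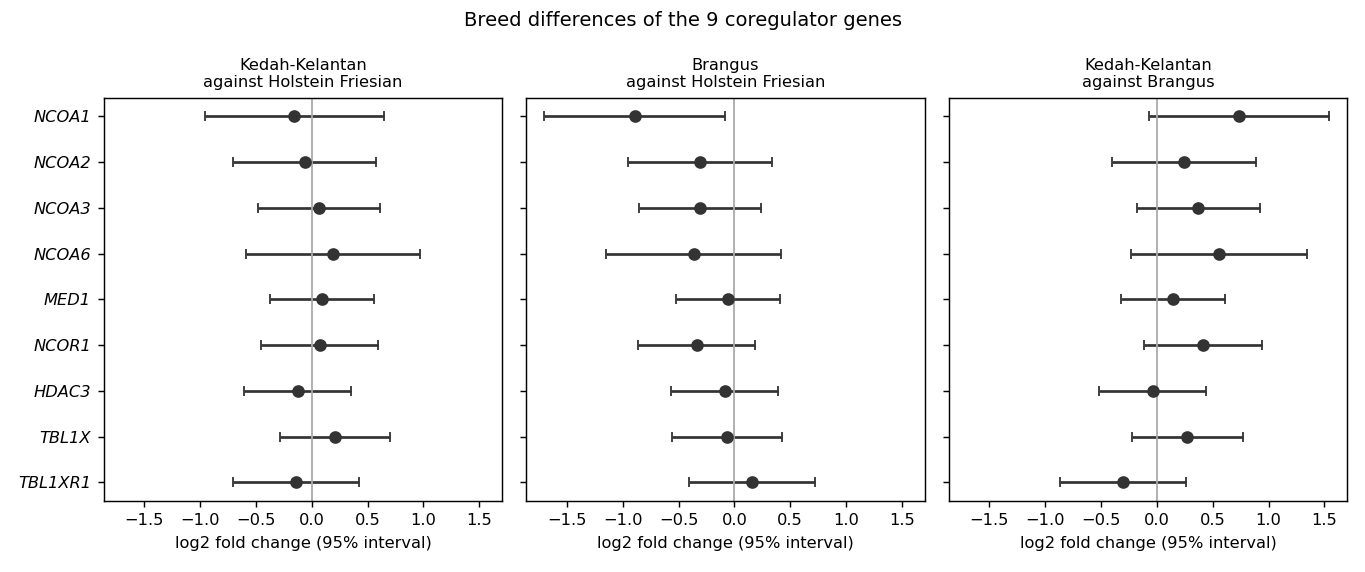
Log2 fold changes of the 9 genes with 95% intervals from edgeR's quasi-likelihood fit to 6 libraries, for Kedah-Kelantan and Brangus, each against Holstein Friesian, and for Kedah-Kelantan against Brangus. NCOA1 in Brangus against Holstein Friesian (-1.70 to -0.09) is the 1 interval that leaves out 0, before any adjustment for the number of genes.

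TBL1X, which like TBL1XR1 belongs to the corepressor complex built on NCOR1, has 2 records in the matrix. The record named TBL1X lies on chromosome X, 133338879 to 133585555, minus strand. The other carries the same description and lies at 6537172 to 6782468, plus strand, on another sequence, which was left without a chromosome name here. Of 29 such second records in the matrix, 26 lie on that sequence, and 28 have their first record on chromosome X. Chromosome names here come from symbols shared with a reference gene table, and those symbols would name this sequence X too. Of the genes on it, 5 have a symbol in the reference gene table, and all 5 are on chromosome X there. The sequence called chromosome X here holds 572 genes with such a symbol. All cows were labelled female, and what the second record's reads stand for was not tested. How the authors assigned reads that match both records is not given in the sources used here, so the split between them is uncertain.

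The X-linked TBL1X record had 30.5 and 25.3 CPM in Kedah-Kelantan, 24.3 and 21.9 CPM in Brangus, and 24.5 and 23.8 CPM in Holstein Friesian. Both Kedah-Kelantan libraries lay above the other 4, by little (log2 fold change 0.21, SE 0.20, adjusted p = 0.995 against Holstein Friesian, and 0.27, SE 0.20, adjusted p = 0.626 against Brangus). The second record had 27.6 and 28.4 CPM in Kedah-Kelantan, 26.2 and 29.2 CPM in Brangus, and 24.3 and 56.8 CPM in Holstein Friesian. Counts of the second record over the first were 0.905 and 1.12 in the Kedah-Kelantan libraries, 1.08 and 1.33 in the Brangus libraries, and 0.993 and 2.39 in the Holstein Friesian libraries. The ratio was above 1 in 4 libraries and was highest in Holstein Friesian replicate 2, followed by Brangus replicate 2. Summed, both TBL1X records gave 58.1 and 53.7 CPM in Kedah-Kelantan, 50.5 and 51.1 CPM in Brangus, and 48.8 and 80.6 CPM in Holstein Friesian. In the sum, an alternative chosen after seeing the data, the difference from Holstein Friesian turned to -0.21 in Kedah-Kelantan (SE 0.27, adjusted p = 0.995), so its direction depended on which record was counted. The sum also gave -0.35 in Brangus against Holstein Friesian (SE 0.27, adjusted p = 0.711), where the X-linked record alone gave -0.06, and 0.14 in Kedah-Kelantan against Brangus (SE 0.27, adjusted p = 0.868), where it gave 0.27.

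**Figure D3:**
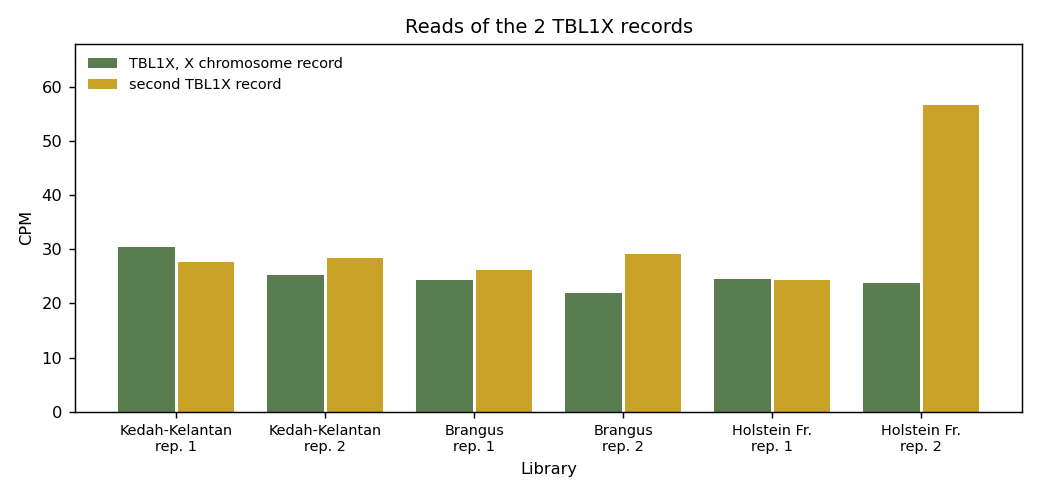
CPM of the X chromosome record of TBL1X (left bar) and of its second record (right bar) in each library. In Holstein Friesian replicate 2 the second record had 56.8 CPM and the first 23.8 CPM, and in Brangus replicate 2 they had 29.2 and 21.9 CPM.

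Seen together, the 9 genes leaned higher in Kedah-Kelantan than in Brangus. In that comparison 7 of 9 had a positive log2 fold change, with a median of 0.27, against a median of 0.02 and 51.9% positive over all 13455 genes. Leaving out 1 library, the median of the 9 lay between 0.18 (without Kedah-Kelantan replicate 1) and 0.41 (without Kedah-Kelantan replicate 2). The Kedah-Kelantan libraries lay wholly above the Brangus ones for 6 genes (NCOA1, NCOA2, NCOA3, NCOA6, NCOR1 and TBL1X) and wholly below for 1 (TBL1XR1), where 33.5% of all genes lay wholly above and 30.7% wholly below. In Brangus against Holstein Friesian 8 of 9 were negative (median -0.31, against -0.03 and 47.3% positive over all genes). That median was -0.48 without Holstein Friesian replicate 1, -0.14 without Holstein Friesian replicate 2 and -0.17 without Brangus replicate 2. For NCOA1 and NCOR1 the Brangus libraries lay wholly below, as for 15.9% of all genes, and for 0 of 9 wholly above, as for 18.4%. In Kedah-Kelantan against Holstein Friesian 5 were positive and 4 negative (median 0.06, against -0.03 and 46.5% positive over all genes), and TBL1X alone lay wholly above, as for 18.1% of all genes, and none wholly below, as for 12.6%. The last median turned to -0.09 when Holstein Friesian replicate 1 was left out and to -0.08 when Kedah-Kelantan replicate 1 was, and it was 0.21 when Holstein Friesian replicate 2 was. These comparisons share libraries, so they are not separate evidence.

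Gene length moved with the difference between Kedah-Kelantan and Brangus. By the length that the deposited FPKM values imply (counts scaled by gene length and library total), the median log2 fold change over all genes was -0.29 in the shortest of 4 equal bins of 3327 genes, 0.00 in the second, 0.11 in the third and 0.21 in the longest. By library, with each gene centred on its own mean, the medians of the shortest and longest bins were -0.18 and 0.19 in Kedah-Kelantan replicate 1 and -0.05 and 0.05 in replicate 2, against 0.17 and -0.08 in Brangus replicate 1 and 0.19 and -0.10 in replicate 2. The trend was thus wider in Kedah-Kelantan replicate 1 than in replicate 2, and alike in the Brangus libraries. NCOA1, NCOA2, NCOA3, NCOA6, MED1, NCOR1 and TBL1XR1 belong to the longest bin, TBL1X to the third and HDAC3 to the second. With the length trend removed from each library, an alternative chosen after seeing the data, the median of the 9 genes was 0.13, while that of all genes was 0.01. NCOA1 was then 0.54 (adjusted p = 0.596), NCOA6 0.37, NCOR1 0.19, NCOA3 0.17 and NCOA2 0.01 in Kedah-Kelantan against Brangus. TBL1XR1, although long, was -0.49. In Brangus against Holstein Friesian the bin medians were 0.17, -0.04, -0.10 and -0.15 from short to long, and NCOA1 was -0.79 with the trend removed. The Holstein Friesian libraries ran in opposite directions, at 0.07 and -0.05 for the shortest and longest bins in replicate 1 and -0.13 and 0.06 in replicate 2.

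**Figure D4:**
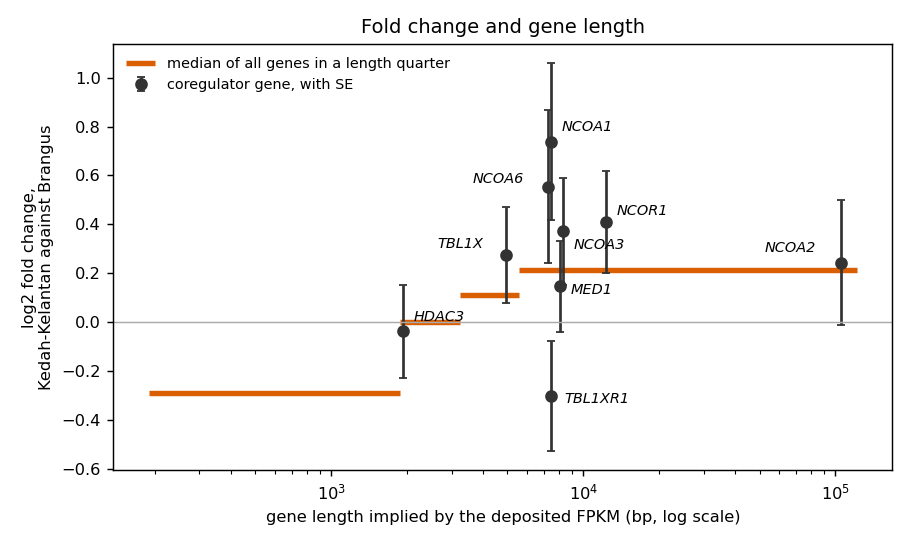
Log2 fold change in Kedah-Kelantan against Brangus, with SE bars, over the gene length implied by the deposited FPKM (log scale) for the 9 genes, with the median of all genes in each of 4 length bins as orange lines. Those medians run from -0.29 to 0.21, and NCOA1 (0.74) and TBL1XR1 (-0.30) lie farthest from the line of their bin.

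Blood cell markers differed between Kedah-Kelantan and Brangus as well. Summed markers of eosinophils, basophils and mast cells (8 of 13 listed genes measured, none of them at 0) were 445 and 461 CPM in Kedah-Kelantan, against 46.9 and 42.4 CPM in Brangus. Platelet markers (8 of 8, none at 0) were 227.5 and 265.7 CPM in Kedah-Kelantan, against 1017 and 1064 CPM in Brangus. B and plasma cell markers were 2149 and 2294 CPM in Kedah-Kelantan, against 3369 and 2945 CPM in Brangus, and NK and cytotoxic cell markers (10 of 10, none at 0) were 752 and 833 CPM in Kedah-Kelantan, against 320 and 435 CPM in Brangus. Neutrophil markers (13 of 14, with CATHL4 at 0 in every library) were 2653 and 2850 CPM in Kedah-Kelantan, against 3033 and 4670 CPM in Brangus. The part of cell make-up in the coregulator differences was not tested.

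Within Holstein Friesian, where replicate 2 had more myeloid and fewer B cell transcripts than replicate 1, the coregulators separated into those higher and those lower in replicate 2. The log2 difference of replicate 2 minus replicate 1 was 0.84 for NCOA1, 0.74 for NCOA6, 0.65 for NCOA2, 0.36 for NCOA3 and 0.36 for NCOR1. It was -0.52 for TBL1XR1, -0.33 for HDAC3, -0.09 for MED1 and -0.04 for the X-linked TBL1X record. NCOA1, NCOA2 and NCOA6 differed over 1.5-fold between these 2 libraries, 3 of 9 genes, as did 51.8% of all tested genes with genes of low count included and nothing added to the CPM. With 0.5 added to each CPM the share of all genes was 47.8%. None of the 9 differed that much between the replicates of Kedah-Kelantan, where 10.8% of all genes did, or of Brangus, where 24.8% did. For NCOA1, NCOA2, NCOA6 and TBL1XR1 both Kedah-Kelantan libraries lay between the Holstein Friesian ones. Besides the monocyte and B cell sums above, neutrophil markers were 1005 CPM in replicate 1 and 8518 CPM in replicate 2, and eosinophil, basophil and mast cell markers 41.8 and 1324 CPM. Their part in the coregulator values was not tested.

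**Figure D5:**
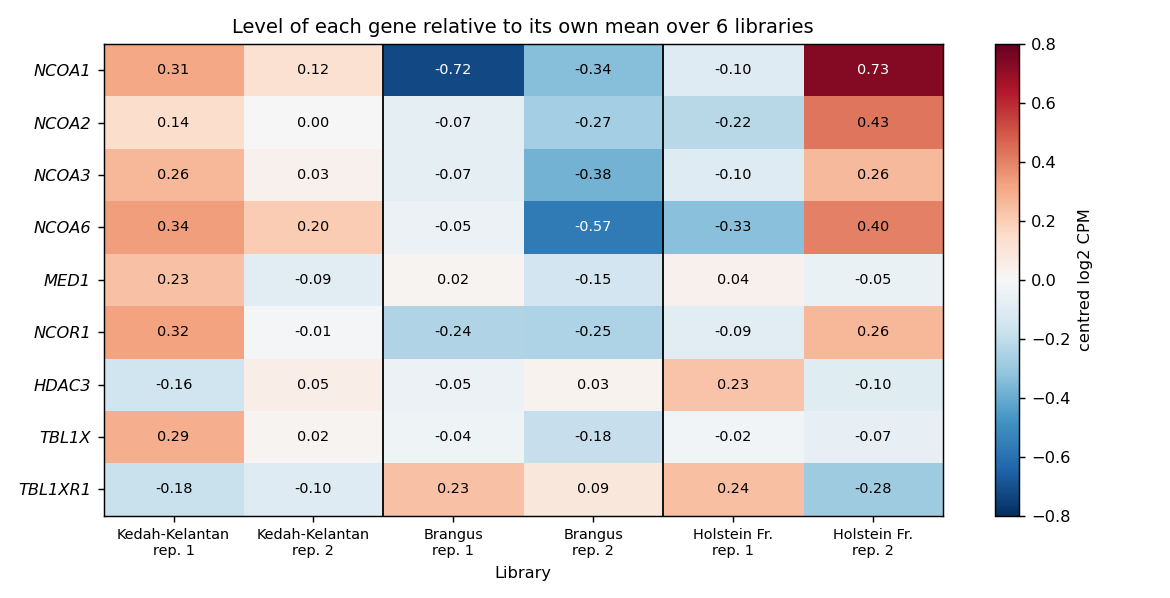
Log2 CPM of each gene minus its own mean over 6 libraries, with the value printed in each cell (red higher, blue lower). NCOA1 runs from -0.72 in Brangus replicate 1 to 0.73 in Holstein Friesian replicate 2, and TBL1XR1 has the opposite sign to NCOA1 in each of the 6 libraries.

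The likeness of the profiles was measured as the mean absolute difference of centred log2 CPM over the 6 libraries. The nearest pair was MED1 and TBL1X, at 0.06, followed by NCOA3 and NCOR1, a coactivator and a corepressor, at 0.07. NCOA3 was also the nearest member to NCOA2 (0.09) and to NCOA6 (0.14), and NCOR1 was nearest to NCOA1 (0.20). HDAC3 and TBL1XR1 were nearest to each other (0.12), and the farthest pair was NCOA1 and TBL1XR1 (0.58). Among 78 tested coregulator and receptor genes outside the 9, the nearest to NCOR1 was NSD1 (0.05), a histone methyltransferase, to NCOA1 EP300 (0.15), a histone acetyltransferase, to NCOA2 PRMT2 (0.09), to NCOA3 ARID1A (0.08), to NCOA6 the Mediator gene MED13L (0.13), to MED1 SIN3A (0.07), to TBL1X RBBP5 (0.06), and to both HDAC3 and TBL1XR1 the Mediator gene MED4 (0.06 and 0.09). These distances rest on 6 libraries that share breed and cell make-up. A small distance can also mean that neither gene varied much. By Pearson correlation the closest pair was NCOA3 and NCOA6 (0.96). MED1 with TBL1X had 0.90, NCOA3 with NCOR1 0.91, and HDAC3 with TBL1XR1 0.64. The TBL1X profile here is that of its X chromosome record alone.

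Per length, by the authors' FPKM, TBL1XR1 was the most abundant of the 9 transcripts, at 27.9 to 44.5 FPKM over the 6 libraries. It was followed by HDAC3 (24.2 to 33.8), NCOA3 (16.4 to 31.2), MED1 (15.4 to 24.6), NCOR1 (12.01 to 21.7), NCOA6 (5.46 to 12.4), NCOA1 (4.70 to 13.1) and the X-linked TBL1X record (4.07 to 6.90). Each of these overlapped its neighbour in the order. The second TBL1X record was at 8.81 to 19.35 FPKM, so the place of TBL1X depends on which record is read. NCOA2 was listed at 1.03 to 1.71 FPKM, but its values imply a length of 104926 bp, against 7443 bp for NCOA1 and 8308 bp for NCOA3, so its place in this order cannot be read. Its counts were 2745 to 5045 per library, and those of NCOA3 were 3464 to 7232.

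The proportions among transcripts of corepressor complex genes differed between libraries on this per-length scale. Proteins were not measured. FPKM scales by 1 length per gene and does not remove the length trend that differed between libraries. With that trend removed, log2 fold changes in Kedah-Kelantan against Brangus were 0.19 for NCOR1, 0.06 for HDAC3 and -0.49 for TBL1XR1. With the trend left in they were 0.41, -0.04 and -0.30 in that order. The part of gene length in the ratios was not tested. TBL1XR1 over NCOR1 was 1.64 and 2.17 in the Kedah-Kelantan libraries, 3.22 and 2.93 in the Brangus libraries, and 2.93 and 1.59 in the Holstein Friesian libraries. TBL1XR1 was above NCOR1 in every library, and the ratio was higher in Brangus than in Kedah-Kelantan without overlap, while Holstein Friesian replicate 1 was at the Brangus level and replicate 2 was the lowest library. HDAC3 over NCOR1 was 1.27 and 1.85 in the Kedah-Kelantan libraries, 2.03 and 2.14 in the Brangus libraries, and 2.23 and 1.384 in the Holstein Friesian libraries. The ratio of the corepressor NCOR1 to the coactivator NCOA3 was nearly level, at 0.695 and 0.650 in the Kedah-Kelantan libraries, 0.595 and 0.734 in the Brangus libraries, and 0.672 and 0.670 in the Holstein Friesian libraries. NCOR1 over NCOA1 was 1.87 and 1.70 in the Kedah-Kelantan libraries, 2.59 and 1.99 in the Brangus libraries, and 1.87 and 1.34 in the Holstein Friesian libraries. With 2 libraries per breed no exact test of a ratio can reach a p under 0.05, and none was made.

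The corepressor complex subunits GPS2 and CORO2A were looked at beside the 9 genes, and were chosen after their values were seen. GPS2, a small subunit, had 44.2 and 47.5 CPM in Kedah-Kelantan, 55.1 and 38.5 CPM in Brangus, and 54.2 and 51.3 CPM in Holstein Friesian (Kedah-Kelantan against Holstein Friesian -0.20, SE 0.22). CORO2A had 65.1 and 59.0 CPM in Kedah-Kelantan, 47.6 and 56.2 CPM in Brangus, and 23.0 and 99.9 CPM in Holstein Friesian.

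The 6 lists of partner genes gave the setting of these values. They held 81 genes, of which 80 were in the matrix and 78 were tested, and 0 passed in any comparison in either direction. At an unadjusted p under 0.05 there were 0 of 78 in Kedah-Kelantan against Holstein Friesian (4.04% of all genes), 7 in Brangus against Holstein Friesian (7.62%) and 19 in Kedah-Kelantan against Brangus (11.6%). Kedah-Kelantan lay wholly above Brangus for 34 of 78 (33.5% of all genes) and wholly below for 17 (30.7%).

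Among 8 acetyltransferase and methyltransferase coactivators, the median in Kedah-Kelantan against Brangus was 0.41, with 6 positive and 2 negative. CREBBP, the acetyltransferase CBP, had 208 and 171 CPM in Kedah-Kelantan, 133 and 136 CPM in Brangus, and 145 and 205 CPM in Holstein Friesian. KAT2A, another acetyltransferase, was 38.2 and 43.3 CPM in Kedah-Kelantan, 30.0 and 29.5 CPM in Brangus, and 34.5 and 37.8 CPM in Holstein Friesian (0.45, SE 0.17, adjusted p = 0.42 in Kedah-Kelantan against Brangus), and the arginine methyltransferase CARM1 was 0.37 (SE 0.20) in that comparison. Brangus lay below the other breeds for these 3 genes. Among 11 other coactivators the median was 0.04, with 8 positive (0.0082 to 0.13 leaving out 1 library). The chromatin remodelling subunit ARID1A was 0.56 (SE 0.19, adjusted p = 0.388), NSD1 was 0.43 (SE 0.21) and NCOA4 was 0.11 (SE 0.39), with NCOA4 at 255.4 CPM in Holstein Friesian replicate 2 and 109.8 to 121.6 CPM in the other 5 libraries.

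Of 16 other corepressor genes, 14 were negative and 2 positive in Brangus against Holstein Friesian (median -0.36). Leaving out Holstein Friesian replicate 1 gave a median of -0.60, and leaving out replicate 2 gave -0.22. Brangus lay wholly below for 11 of 16, where 15.9% of all genes did. Of the same genes 11 were positive in Kedah-Kelantan against Brangus (median 0.27). HDAC7, a class IIa deacetylase, had 61.9 and 57.7 CPM in Kedah-Kelantan, 42.3 and 36.9 CPM in Brangus, and 49.9 and 48.5 CPM in Holstein Friesian (0.59, SE 0.16, adjusted p = 0.359 in Kedah-Kelantan against Brangus). BCOR was 0.41 (SE 0.16) in the same comparison. HDAC2 ran the other way, with 81.2 and 92.5 CPM in Kedah-Kelantan, 127 and 134 CPM in Brangus, and 123 and 89.8 CPM in Holstein Friesian (-0.59, SE 0.21, adjusted p = 0.398).

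The 30 other Mediator subunits were mixed, with 14 positive and 16 negative in Kedah-Kelantan against Brangus (median -0.04). CCNC, the cyclin of the Mediator kinase module, was -0.74 (SE 0.22, adjusted p = 0.368) and MED31 -0.79 (SE 0.30, adjusted p = 0.423), while MED25 was 0.71 (SE 0.26, adjusted p = 0.412). Of the 9 genes of the methyltransferase complex that NCOA6 joins, 7 were positive (median 0.21, or 0.32 without Brangus replicate 1). KMT2D, its large catalytic subunit, had 201 and 136 CPM in Kedah-Kelantan, 97.1 and 95.5 CPM in Brangus, and 128 and 151 CPM in Holstein Friesian (0.81, SE 0.24, adjusted p = 0.367). The subunits DPY30 (-0.88, SE 0.32) and PAGR1 (-0.59, SE 0.17) were lower in Kedah-Kelantan than in Brangus without overlap, and neither passed. Of the receptors and their RXR partners 4 were tested. RXRA, a dimer partner of thyroid hormone receptors, had 84.2 and 89.0 CPM in Kedah-Kelantan, 75.7 and 75.6 CPM in Brangus, and 46.7 and 232 CPM in Holstein Friesian. RXRB was -0.21 (SE 0.26) in Kedah-Kelantan against Brangus, and the receptor THRB was at 0 in Brangus replicate 2 and at most 3.65 CPM in any library.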

How the data were processed

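Whole-blood RNA of 6 libraries, 2 per breed, was measured. The deposited counts are whole-number reads per gene, not normalised. The deposited FPKM values, named so in the file headers, behave as the same counts scaled by 1 length per gene and by library total. Build ARS-UCD1.2 and the tools HISAT2 2.2.1, featureCounts 2.0.1, DESeq2 1.38.0, Trimmomatic 0.39 and FastQC 0.11.9 are listed in the submitters' processing notes. What each did, strandedness and read assignment are not stated there. Positions are those of the deposited table, with chromosome names taken from symbols shared with a reference gene table, and are not tied to a build.

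Counts were fitted in R 4.3.3 with edgeR 4.0.16 (TMM, filterByExpr, robust quasi-likelihood, breed as the only term, 6 libraries, 13455 genes), and adjusted p under 0.05 was called. The test was tried on simulated data. DESeq2 1.42.0, limma 3.58.1 (voom with sample weights, and log2 of FPKM + 1), RLE scaling, no filter, a replicate block, breed pairs alone and leaving out each library were alternatives. Intervals come from the fit's t distribution. The members and lists were chosen with earlier results of these data known. All 9 members were named in every comparison, with the 3 genes of smallest p in the any-breed test per partner list. Sequences were not used here, and 1 gene of the corepressor list is not reported by name. No sample column was left unused.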

Additional observations from a re-analysis of the deposited data

How the results depend on the processing

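The number of the 9 genes called was 0 in every comparison with RLE scaling, no filter, DESeq2, limma on log2(FPKM + 1), the replicate block, both TBL1X records summed and the length trend removed. It was 1 (NCOA1) in Kedah-Kelantan against Brangus with only the 2 breeds fitted and with voom weights. Leaving out 1 library gave 0 to 5 in Brangus against Holstein Friesian (5 without Holstein Friesian replicate 1), 0 to 1 in Kedah-Kelantan against Brangus, 0 to 0 in Kedah-Kelantan against Holstein Friesian and 0 to 2 for any breed difference. These fits assume that the lone library of a breed varies like the others. The Holstein Friesian replicates differed more (median absolute log2 difference 0.51) than those of Kedah-Kelantan (0.13) and Brangus (0.19). The assumption is thus doubtful where 1 Holstein Friesian library was left. The calls of NCOA1, NCOA2, NCOA6, NCOR1 and TBL1XR1 in Brangus against Holstein Friesian all rest on it.

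Genes called over all genes numbered 1 in Kedah-Kelantan against Holstein Friesian, 1 in Brangus against Holstein Friesian, 0 in Kedah-Kelantan against Brangus and 0 for any breed difference. DESeq2 called 131, 313, 672 and 625 in that order. Fits of 2 breeds called 0, 0 and 2537, and voom weights 0, 0, 1936 and 0. The replicate block and the length trend removed each called 0 in all 4. RLE scaling called 0 in Brangus against Holstein Friesian, limma on log2(FPKM + 1) called 2 in Kedah-Kelantan against Holstein Friesian and 1 for any breed, and no filter called 1 for any breed. Leaving out 1 library gave 0 to 2464, 0 to 4395, 0 to 2458 and 0 to 4783. The cause was not tested.

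Signs of uncalled fold changes turned. In Kedah-Kelantan against Holstein Friesian, log2(FPKM + 1) gave 0.038 for HDAC3, 0.053 for NCOA1, 0.073 for NCOA2 and 0.039 for TBL1XR1. The length trend removed gave -0.019 for MED1, -0.038 for NCOA3 and -0.035 for NCOR1, and the summed records gave -0.21 for TBL1X. In Brangus against Holstein Friesian the length trend removed gave 0.039 for MED1 and 0.0034 for TBL1X. In Kedah-Kelantan against Brangus it gave -0.057 for MED1 and 0.063 for HDAC3, where log2(FPKM + 1) gave 0.21.

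Leaving out 1 library, fold changes in Kedah-Kelantan against Holstein Friesian ranged from -0.32 to 0.049 for HDAC3, -0.076 to 0.24 for MED1, -0.51 to 0.28 for NCOA1, -0.35 to 0.26 for NCOA2, -0.10 to 0.21 for NCOA3, -0.13 to 0.56 for NCOA6, -0.10 to 0.23 for NCOR1 and -0.42 to 0.14 for TBL1XR1. In Brangus against Holstein Friesian they ranged from -0.28 to 0.080 for HDAC3, -0.60 to 0.015 for NCOA2, -0.69 to 0.0092 for NCOA6 and -0.12 to 0.44 for TBL1XR1. In Kedah-Kelantan against Brangus they ranged from -0.14 to 0.072 for HDAC3 and -0.013 to 0.31 for MED1. There, NCOA1 stayed between 0.55 and 0.94.

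The replicate numbers share only a number, with correlations of deviations of 0.04, -0.00 and 0.14 over 10084 genes, and with the replicate block NCOA1 was 0.77 in Kedah-Kelantan against Brangus (adjusted p = 0.572). Counts of the 9 genes were 510 to 9523 per library.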
